A study of Mus musculus with 10 samples.

Results

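The 10 genes *Hmox1*, *Slc40a1*, *Fth1*, *Ftl1*, *Tfrc*, *Slc11a1*, *Slc11a2*, *Hp*, *Hpx* and *Cp*, which act in the handling of iron, heme and haptoglobin, were examined in the cortex of kidney from mice with aristolochic acid nephropathy (AAN). They were taken by name, and all 10 were found among the 21792 genes with a value. RNA sequencing covered 4 sham mice injected with PBS and 6 AAN mice given a single intraperitoneal dose of aristolochic acid at 5 mg/kg. All were wild-type male C57BL/6 mice aged 8 weeks at the start, 1 library was made per mouse, and kidneys were taken at day 28. Each library carries the tag of a mouse of its own, so the spread is between animals. A mouse is called here by the tag of its label (for example B614). The comparison asks how the mRNA of each gene differed between fibrotic and control kidneys.

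Iron enters most cells as transferrin bound to its receptor (*Tfrc*), is carried across endosomal membranes by *Slc11a2* (DMT1), is stored in shells of ferritin heavy (*Fth1*) and light (*Ftl1*) chains, and leaves through ferroportin (*Slc40a1*), helped by a ferroxidase such as ceruloplasmin (*Cp*). Heme is opened by heme oxygenase (*Hmox1*), which releases iron, while free haemoglobin and heme in plasma are bound by haptoglobin (*Hp*) and hemopexin (*Hpx*). The proximal tubule takes up filtered transferrin and haemoglobin through megalin and cubilin, and macrophages recycle the iron of cells they engulf.

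Levels are in FPKM (fragments scaled to the length of the gene and to the M fragments of the library), a scale per length on which genes can be compared. AAN and sham mice were compared on log2(FPKM + 0.1) by limma in 17129 genes whose mean over the 10 mice reached 0.1 FPKM. A gene that passed this filter only through the AAN mice could be called higher but not lower. To be called, a gene needed an adjusted p (Benjamini-Hochberg over these genes) no higher than 0.05 together with a 2-fold change or more. Fold changes on this scale understate the change of genes near or under the pseudocount of 0.1. The depth recovered from low values was 13.4 to 17.5 M fragments per mouse. The FPKM values are shares of totals of unequal composition, since mitochondrial genes held 39.5% to 61.4% of the summed FPKM of a sham mouse and 21.4% to 55.0% of that of an AAN mouse. The median log2 fold change of all genes was 0.75 in the values as deposited and 0.065 after rescaling by the median of ratios between mice. Changes are therefore also given after that rescaling, and as differences between 2 genes of the same mouse. A factor that scales all genes of a mouse alike does not alter these differences, apart from the pseudocount. Quantile normalization is not such a factor, and the differences were not computed after it.

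In the values as deposited, 4 of the 10 genes rose in AAN mice (*Hp*, *Cp*, *Slc11a1* and *Hpx*), where 35.8% of all genes tested were called higher, and 1 fell (*Tfrc*), where 3.43% were called lower. Levels of 3 of the 10, *Hp*, *Cp* and *Slc11a1*, were higher in every AAN mouse than in every sham mouse, against 40.3% of all genes, and 0 of the 10 were lower in every AAN mouse, against 3.25%. After the rescaling the groups did not overlap for the same 3 genes upward (20.1% of all genes) and for *Fth1*, *Ftl1*, *Tfrc* and *Slc11a2* downward (15.0%). With the same rescaling, *Hp*, *Cp* and *Slc11a1* were called higher (19.0% of all genes) and *Tfrc*, *Slc11a2*, *Fth1* and *Ftl1* lower (10.5% of all genes). The median log2 fold change of the 10 genes was 0.63 as deposited and -0.12 after the median of ratios. *Hmox1* was called under neither scaling.

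**Figure D1:**
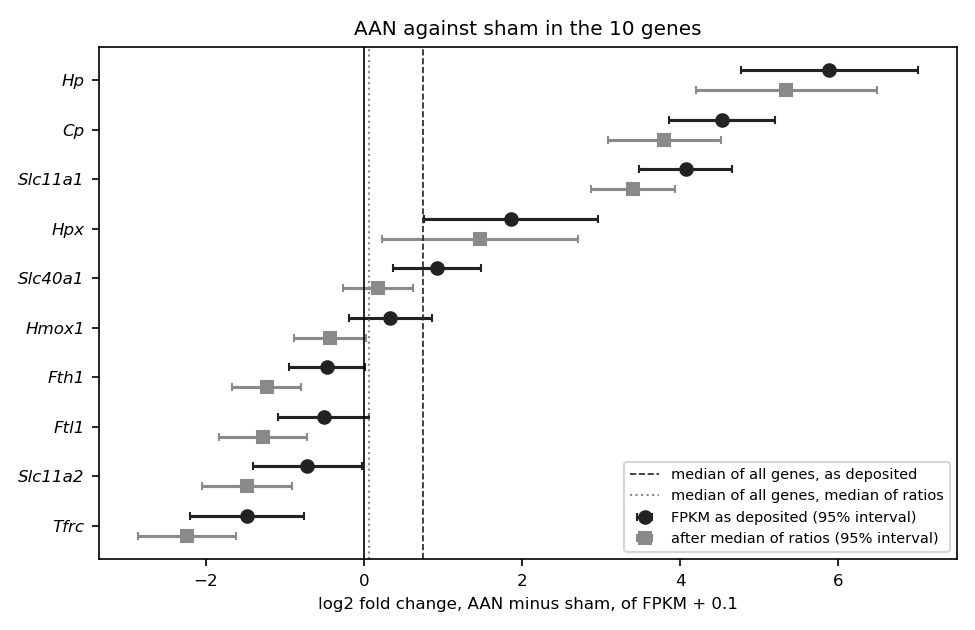
Log2 fold change of FPKM + 0.1 from sham (n = 4) to AAN mice (n = 6) for each of the 10 genes, with 95% intervals from limma, in the values as deposited (circles) and after the median of ratios (squares); vertical lines mark the median of all genes under each scaling. *Hp*, *Cp* and *Slc11a1* lie at 3.41 or more under both scalings, and *Tfrc* at -1.48 and -2.23.

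Several of these mRNAs carry an iron responsive element, a hairpin that iron regulatory proteins bind when iron is scarce. Binding in the 5′ untranslated region blocks translation, and binding in the 3′ region protects the mRNA from decay, so that the element also acts on steps which mRNA levels do not show. Annotated untranslated regions were searched on the transcribed strand for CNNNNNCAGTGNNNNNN, in which the 5 bases on either side of the 6-base loop had to pair (G with U allowed) and the loop could not end in G. No other motif was searched. In the 5′ region, 20 of 16511 genes held a match (0.121%), *Fth1*, *Ftl1* and *Slc40a1* among them, and in the 3′ region 90 of 16746 genes did (0.537%), *Tfrc* among them with 4 sites. The other 6 genes had none with these letters. The pattern allows no unpaired base within the 5 pairs. A hairpin with such a base would be missed, so the search does not show that these 6 genes, *Slc11a2* among them, lack an element. The sites shown lie in the 5′ region of *Fth1*, *Ftl1* and *Slc40a1* and in the 3′ region of *Tfrc*. The loop is in capitals, and the sequence is written as DNA from GENCODE mouse release M21 transcripts on GRCm38.
Fth1, 5′ region, chr19:9982732-9982760, plus strand: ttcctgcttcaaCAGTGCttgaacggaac
Ftl1, 5′ region, chr7:45459779-45459807, minus strand: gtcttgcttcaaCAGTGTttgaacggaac
Slc40a1, 5′ region, chr1:45925465-45925493, minus strand: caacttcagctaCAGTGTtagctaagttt
Tfrc, 3′ region, site 1, chr16:32631219-32631247, plus strand: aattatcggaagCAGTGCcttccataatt
Tfrc, 3′ region, site 2, chr16:32631598-32631626, plus strand: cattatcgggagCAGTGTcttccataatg
Tfrc, 3′ region, site 3, chr16:32631663-32631691, plus strand: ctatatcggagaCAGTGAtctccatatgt
Tfrc, 3′ region, site 4, chr16:32631710-32631738, plus strand: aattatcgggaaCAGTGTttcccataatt

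**Figure D2:**
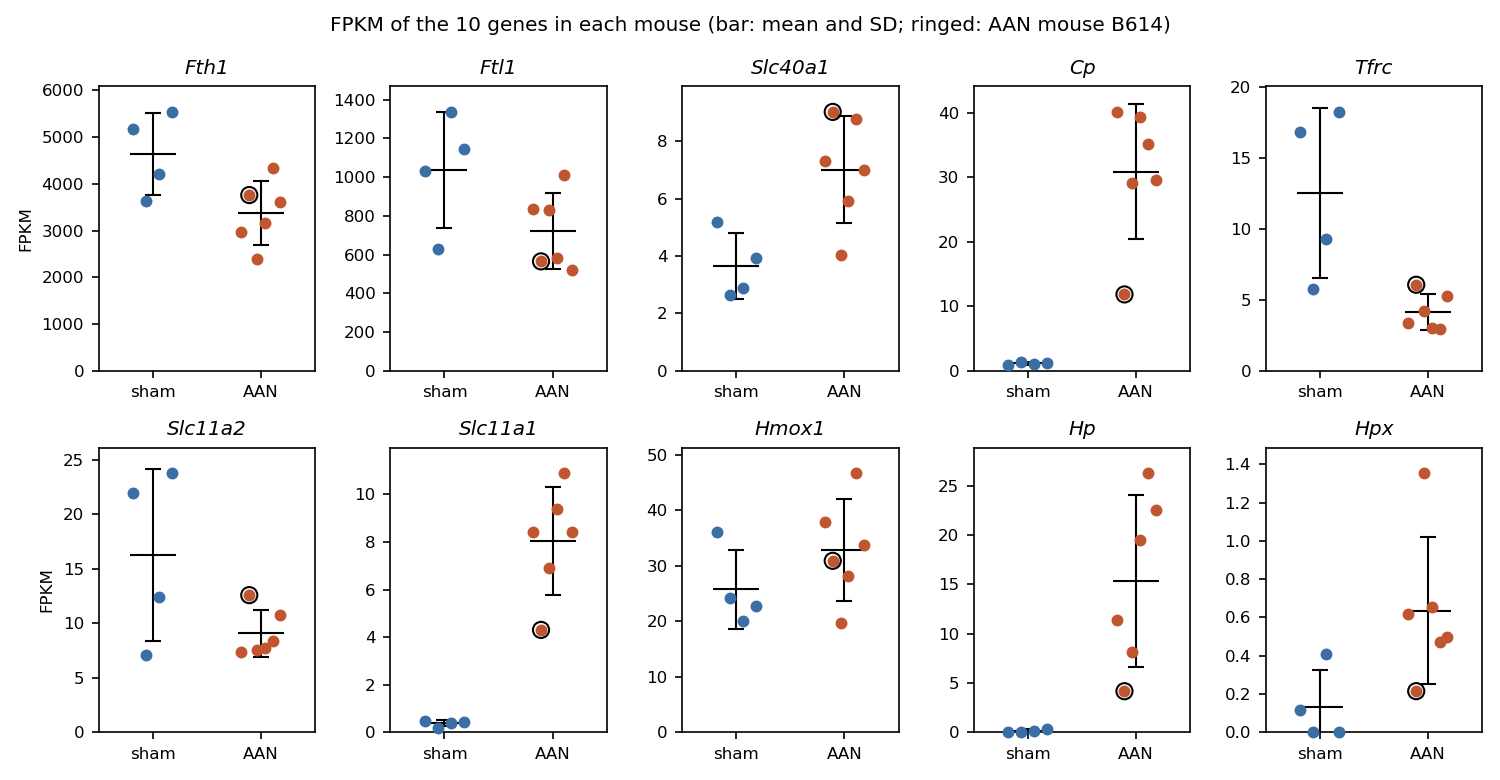
FPKM of the 10 genes in each mouse, with points for single mice, bars for the mean and SD, and a ring around the AAN mouse B614; each panel has its own axis from 0. The groups do not overlap for *Cp*, *Slc11a1* and *Hp*, and overlap for the other 7 genes.

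The ferritin chains were the most abundant of the 10 genes in both groups, and neither passed the limits as deposited. *Fth1* (ENSMUSG00000024661, chromosome 19 from 9980598 to 9985098, plus strand) encodes the heavy chain, which oxidizes iron for storage. It was at 5166, 3639, 4201 and 5539.7 FPKM in the sham mice B607, B634, B636 and H249, and at 2399.6 to 4347 FPKM in AAN mice (median 3389). In 4 of the 6 AAN mice it lay below every sham mouse, and the AAN mouse with the highest level, B642, lay within the sham range. The mean was 4636 ± 872 FPKM in sham (SD, n = 4) against 3375 ± 680.1 in AAN (SD, n = 6), which on the log2 scale is a change of -0.46 (95% interval -0.94 to 0.017, adjusted p = 0.0856 from limma; the unadjusted exact permutation p of this single gene was 0.0476). After the median of ratios it was -1.23 (adjusted p = 0.000384 from limma) and the groups did not overlap, whereas quantile normalization gave 0.28 (adjusted p = 0.597 from limma).

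*Ftl1* (ENSMUSG00000050708, chromosome 7 from 45457944 to 45459884, minus strand) encodes the light chain, which favours mineral formation inside the shell. Its levels were 1030.2, 629.7, 1337 and 1145 FPKM in the sham mice in the same order, and 521 to 1012 FPKM in AAN mice (median 706). Here the sham mouse B634 lay among the AAN mice, and 3 of 6 AAN mice were below all sham mice. The mean was 1035 ± 299 FPKM in sham (SD, n = 4) against 724 ± 196 in AAN (SD, n = 6), which on the log2 scale is a change of -0.51 (95% interval -1.08 to 0.065, adjusted p = 0.111 from limma) and of -1.27 after the median of ratios (adjusted p = 0.0015 from limma). The value of *Ftl1* is uncertain, because 73.45% of the 50-base windows of its longest coding transcript also occur in the pseudogene *Ftl1-ps1*, which was listed at 518 to 828 FPKM in sham and 412 to 663 FPKM in AAN mice. The sum of the pair was 1718 ± 373 FPKM in sham (SD, n = 4) against 1276 ± 248 in AAN (SD, n = 6), so that the fold change with the copies summed was of the same sign.

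Within a mouse, log2 *Fth1* minus log2 *Ftl1* was 2.20 ± 0.38 in sham mice (SD, n = 4) and 2.24 ± 0.50 in AAN mice (SD, n = 6). The groups differed by 0.043 with a standard error of 0.28, within the spread of the mice (p = 0.89, exact two-sided permutation test). The ranges of both groups overlapped.

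Of the genes of iron export, *Cp* rose and *Slc40a1* did not reach the fold limit. *Cp* (ENSMUSG00000003617, chromosome 3 from 19957054 to 20009145, plus strand) encodes ceruloplasmin, a copper ferroxidase of plasma and of cell surfaces. It was at 0.918, 1.38, 1.12 and 1.21 FPKM in the sham mice B607, B634, B636 and H249. In AAN mice it was at 11.8 (B614) to 40.1 FPKM (A483), with a median of 32.4. The means were 1.16 ± 0.191 FPKM (SD, n = 4) and 30.9 ± 10.4 FPKM (SD, n = 6), a ratio of 26.7. The lowest AAN mouse was far above the highest sham mouse, and the 5 AAN mice other than B614 lay together at 29.1 FPKM or more. The log2 fold change was 4.54 (95% interval 3.86 to 5.21, adjusted p = 3.62e-07 from limma) and 3.80 after the median of ratios. The exact two-sided permutation test gave p = 0.00476, the smallest that 4 against 6 mice allow. *Cp* overlaps the annotated gene *Hps3*, and strand use in the counting is not stated.

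*Slc40a1* (ENSMUSG00000025993, chromosome 1 from 45908068 to 45926523, minus strand) encodes ferroportin, the iron exporter. Its levels were 5.18, 2.63, 2.89 and 3.92 FPKM in the sham mice and 4.05 (B630) to 9.02 FPKM (B614) in AAN mice, with a median of 7.16. The means were 3.65 ± 1.16 FPKM (SD, n = 4) and 7.01 ± 1.85 FPKM (SD, n = 6). In 5 of 6 AAN mice it lay above every sham mouse. The log2 fold change was 0.92 (95% interval 0.37 to 1.48, adjusted p = 0.00814 from limma), which is less than 2-fold and 0.18 above the median of all genes. It passed the fold limit without the sham mouse B607 (1.104) and without the AAN mouse B630 (1.07), and was 0.18 after the median of ratios (adjusted p = 0.504 from limma).

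*Tfrc* fell, *Slc11a2* did not pass the limits as deposited, and *Slc11a1* rose. *Tfrc* (ENSMUSG00000022797, chromosome 16 from 32608920 to 32632794, plus strand), the transferrin receptor, was at 16.8, 5.76, 9.30 and 18.3 FPKM in the sham mice B607, B634, B636 and H249. In AAN mice it was at 2.97 (B642) to 6.08 FPKM (B614), with a median of 3.81. The sham mice differed among themselves by more than the AAN mice did, and B634 was the only sham mouse within the AAN range. The mean was 12.5 ± 5.99 FPKM in sham (SD, n = 4) against 4.15 ± 1.28 in AAN (SD, n = 6). On the log2 scale the change was -1.48 (95% interval -2.20 to -0.76, adjusted p = 0.00228 from limma). After the median of ratios it was -2.23, and all 6 AAN mice lay below all sham mice.

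*Slc11a2* (ENSMUSG00000023030, chromosome 15 from 100387898 to 100425072, minus strand) encodes DMT1, the carrier of ferrous iron in endosomes and at the apical membrane. It was at 21.95, 7.10, 12.4 and 23.8 FPKM in the sham mice, and at 7.38 to 12.6 FPKM in AAN mice (median 8.06). The sham mice B607 and H249 were high in this gene as they were in *Tfrc*, and B634 was below all AAN mice. The log2 fold change was -0.72 (95% interval -1.40 to -0.026, adjusted p = 0.067 from limma) and did not pass the limits. Without B634 it was -1.06 (adjusted p = 0.00474 from limma), and after the median of ratios it was -1.47 (adjusted p = 0.000658 from limma), both past the limits. *Slc11a2* overlaps the listed gene *Gm5475*.

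*Slc11a1* (ENSMUSG00000026177, chromosome 1 from 74375195 to 74386062, plus strand) encodes NRAMP1, which moves divalent metals out of the phagosomes of macrophages and neutrophils. It was at 0.484, 0.206, 0.380 and 0.451 FPKM in the sham mice, which stands for at most 12.1 to 31.4 fragments per mouse. In AAN mice it was at 4.31 (B614) to 10.9 FPKM (B642), with a median of 8.40. The means were 0.380 ± 0.124 FPKM (SD, n = 4) and 8.04 ± 2.25 FPKM (SD, n = 6), a ratio of 21.2, and the groups lay far apart. The log2 fold change was 4.07 (95% interval 3.48 to 4.66, adjusted p = 3.18e-07 from limma) and 3.41 after the median of ratios. Log2 *Slc11a1* minus log2 *Slc11a2* was -4.99 ± 0.42 in sham mice (SD, n = 4) and -0.20 ± 0.71 in AAN mice (SD, n = 6).

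Macrophage markers rose as *Slc11a1* did. Of the 8 in the list (*Adgre1*, *Csf1r*, *C1qa*, *C1qb*, *C1qc*, *Cd68*, *Mrc1* and *Cd163*), 8 rose, beside 35.8% of all genes, and 7 were called higher after the median of ratios, beside 19.0%. *Cd163* was the one not called there (0.93, adjusted p = 0.0536 from limma), and it lost its call as deposited when any 1 of 5 of the mice was left out. It passed the filter on low values only through the AAN mice. The summed level of the list was 37.9 to 60.7 FPKM in sham and 619 (B614) to 2146 FPKM in AAN mice. Of the 6 leukocyte markers all 6 rose, as deposited and after the median of ratios, beside the same 35.8% and 19.0%. Their sum was 7.65 to 14.0 FPKM in sham and 138 to 419 FPKM in AAN mice. Of 5 neutrophil markers with a value, 4 could be tested and 3 rose, beside the same 35.8% of all genes, with a sum of 0 to 2.16 FPKM in sham and 0.92 to 9.15 FPKM in AAN mice, and *Ly6g* was listed at 0 in all sham mice. Of the 3 that rose, *Cxcr2* passed the filter on low values only through the AAN mice. *S100a9* missed the threshold without the sham mouse B607 (log2 fold change 1.42, adjusted p = 0.0608 from limma), and after the median of ratios 1 of the 4 neutrophil markers, *S100a8*, was called. Their part in the rise of *Slc11a1*, *Hp* and *Cp* was not tested. In RNA of whole cortex, more or fewer cells of a type and more or less RNA per cell cannot be told apart.

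Of 8 proximal tubule markers 6 fell, beside 3.43% of all genes, and 7 were called lower after the median of ratios, beside 10.5%. Their summed level was 1988 to 3977 FPKM in sham mice and 512 to 1942 FPKM in AAN mice, and the AAN mouse with the highest sum was B614, which also had the highest *Tfrc* and *Slc11a2* of the AAN mice. Of the 4 thick limb markers 0 were called as deposited and 2, *Umod* and *Kcnj1*, were called lower after the median of ratios (-1.80 and -1.03), beside 10.5% of all genes. The 4 summed to 443 to 1637 FPKM in sham and 198 to 1930.1 FPKM in AAN mice, where B614 again had the highest sum. The 6 injured tubule markers all rose, as deposited and after the median of ratios, beside 35.8% and 19.0% of all genes. Their sum was 146 to 241 FPKM in sham and 1406 to 3537 FPKM in AAN mice. Among them *Havcr1* passed the filter on low values only through the AAN mice. The labelled tissue, kidney cortex, thus showed its tubule markers in both groups. Whether the lower *Tfrc* goes with the lower proximal tubule markers was not tested.

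Export against uptake, log2 *Slc40a1* minus log2 *Tfrc*, turned from -1.66 ± 0.44 in sham (SD, n = 4) to 0.75 ± 0.56 in AAN mice (SD, n = 6). In every sham mouse *Tfrc* was the higher of the pair, with differences of -2.19 to -1.10. In 5 of the 6 AAN mice *Slc40a1* was the higher, and in B630 the pair was about level (-0.060). The rise of 2.40 (standard error 0.32) was larger than the spread between mice in the exact two-sided permutation test (p = 0.00476, adjusted p = 0.00714 over 6 differences). The rise of *Slc11a1* against *Slc11a2* was 4.79 (standard error 0.36), with the same exact p and adjusted p.

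**Figure D3:**
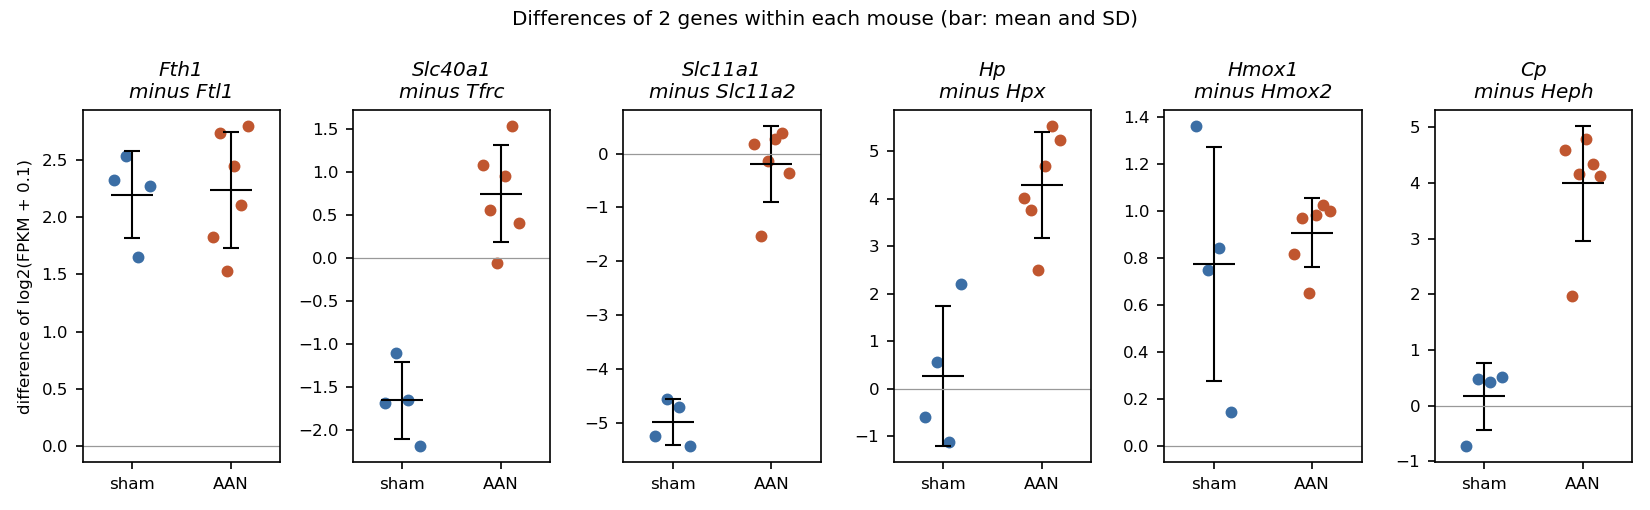
Differences of log2(FPKM + 0.1) between 2 genes of the same mouse in sham (n = 4) and AAN mice (n = 6), with points for mice and bars for the mean and SD. The groups do not overlap for *Slc40a1* minus *Tfrc*, *Slc11a1* minus *Slc11a2*, *Hp* minus *Hpx* and *Cp* minus *Heph*, and they overlap for *Fth1* minus *Ftl1* and *Hmox1* minus *Hmox2*.

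*Hmox1* (ENSMUSG00000005413, chromosome 8 from 75093621 to 75100589, plus strand), the inducible heme oxygenase, was at 36.1, 24.1, 20.2 and 22.7 FPKM in the sham mice B607, B634, B636 and H249. It was at 19.7 (B630) to 46.7 FPKM (B642) in AAN mice, with a median of 32.3. The sham mouse B607 lay above 4 of the AAN mice, and B630 lay below all sham mice. The mean was 25.8 ± 7.10 FPKM in sham (SD, n = 4) against 32.9 ± 9.13 in AAN (SD, n = 6). On the log2 scale the change was 0.34 as deposited (95% interval -0.19 to 0.87, adjusted p = 0.243 from limma), and -0.43 after the median of ratios (95% interval -0.88 to 0.026, adjusted p = 0.113 from limma), so the sign depends on the scaling. Both intervals leave out a 2-fold rise or fall. Against *Hmox2*, the constitutive heme oxygenase, the difference changed by 0.13 (standard error 0.26; p = 0.576 by exact two-sided permutation).

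*Hp* rose from a level near the limit of these libraries. *Hp* (ENSMUSG00000031722, chromosome 8 from 109575128 to 109579172, minus strand) encodes haptoglobin, which the liver secretes and which is also made in neutrophils and other cells. It was at 0.0425, 0.0470, 0.136 and 0.361 FPKM in the sham mice B607, B634, B636 and H249, which stands for at most 1.20, 1.20, 3.59 and 9.56 fragments. In the AAN mice it was at 4.17 (B614), 8.11 (B630), 11.4 (A483), 19.5 (B639), 22.5 (B666) and 26.2 FPKM (B642). Every AAN mouse was thus above every sham mouse, and the AAN mice spread over a wide range. The log2 fold change was 5.89 (95% interval 4.77 to 7.01, adjusted p = 1.96e-06 from limma). Since the sham levels are near the pseudocount, its size depends on it, from 3.62 with a pseudocount of 1 to 6.83 with 0.01. Against *Cp*, the log2 fold change of *Hp* was higher with the pseudocount of 0.1 and lower with a pseudocount of 1 (3.80 for *Cp*).

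*Hpx* (ENSMUSG00000030895, chromosome 7 from 105591613 to 105600137, minus strand) encodes hemopexin, the plasma carrier of free heme. It was at 0.116 and 0.411 FPKM in the sham mice B607 and B636 and listed at 0 in B634 and H249, where 3 fragments would give 0.126 and 0.121 FPKM. In AAN mice it was at 0.215 (B614) to 1.35 FPKM (B630), with a median of 0.557, or at most 5.07 to 31.5 fragments. The sham mouse B636 lay within the AAN range. The log2 fold change was 1.86 (95% interval 0.76 to 2.96, adjusted p = 0.00725 from limma), but 0.52 with a pseudocount of 1 and 1.47 after the median of ratios (adjusted p = 0.0516 from limma), both short of the limits. Within a mouse, *Hp* minus *Hpx* rose from 0.26 ± 1.47 in sham (SD, n = 4) to 4.29 ± 1.11 in AAN mice (SD, n = 6), a difference of 4.03 (standard error 0.86; p = 0.00476 by exact two-sided permutation, adjusted p = 0.00714). With a pseudocount of 0.01 the adjusted p of this difference was 0.0643 in the same exact test.

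The liver also makes *Hp*, which rose. Of 6 hepatocyte markers 3 fell (*Alb*, *Ttr* and *Apoa2*), beside 3.43% of all genes, and 0 rose, beside 35.8%. After the median of ratios the same 3 were called lower, beside 10.5%, and 0 higher, beside 19.0%. The summed level of the list was 71.4 to 221 FPKM in sham and 28.7 to 72.7 FPKM in AAN mice, most of it from *Ttr*. The mean of *Ttr* in sham mice was 126 FPKM, far above that of *Alb*. Which cells of the cortex gave the *Ttr* or the *Hp* mRNA was not tested. *Serpina1a* and *Fgb* of the same list had log2 fold changes of 1.28 and 1.78 and were not called. *Alb*, albumin, was at 2.90 ± 1.005 FPKM in sham (SD, n = 4) against 0.578 ± 0.442 in AAN (SD, n = 6). Of the erythroid markers, none of the 4 globin genes was called, and *Hbb-bs* was at 1.52 to 10.9 FPKM in sham and 0.689 to 13.0 FPKM in AAN mice. The erythroid list as a whole had 0 genes called higher, beside 35.8% of all genes, and 1 lower, beside 3.43%. This was *Slc4a1*, which intercalated cells of the kidney also express and which lost its call when any 1 of 8 of the mice was left out.

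Among AAN mice, B614 stood at 1 end of the range in 7 of the 10 genes. It had the lowest *Cp*, *Slc11a1*, *Hp* and *Hpx* and the highest *Slc40a1*, *Tfrc* and *Slc11a2*. Without it, the log2 fold change was 4.79 for *Cp*, 4.24 for *Slc11a1* and 6.21 for *Hp*, and -1.60 for *Tfrc*. How often B614 stood at an end of the range over all genes was not counted, so its place is not shown to be particular to these 10 genes.

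In the order of levels, *Fth1* and *Ftl1* stood apart from all others in both groups. In sham mice they were followed by *Hmox1*, *Slc11a2* and *Tfrc*, whose neighbouring ranges overlapped, then by *Slc40a1*, *Cp* and *Slc11a1*, each apart from its upper neighbour, and at the bottom *Hp* and *Hpx*, which overlapped with their upper neighbours. In AAN mice the ranges of all neighbours from *Hmox1* through *Cp*, *Hp*, *Slc11a2*, *Slc11a1* and *Slc40a1* to *Tfrc* overlapped, and *Hpx* alone stood apart below. By deviations from the group mean over the 10 mice, the genes most like *Slc11a1* out of 12245 candidates included *Kcnn4* (r = 0.985) and *Ccm2* (r = 0.977). For *Tfrc* the 3 most like were *Fgf1* (r = 0.958), *Dlg3* (r = 0.952) and *Ghr* (r = 0.949), and for *Hp* they were *Calr* (r = 0.969), *F10* (r = 0.965) and *Myl6* (r = 0.964). These r share the libraries and their scaling and are a description.

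Of the other genes of iron uptake, 5 of 12 rose and 0 fell, beside 35.8% of all genes called higher (median log2 fold change 0.82, near the 0.75 of all genes). After the median of ratios 4 were called higher, beside 19.0% of all genes, without *Cybrd1* (0.53, adjusted p = 0.0619 from limma). Only 1 of the 12 was called lower, beside 10.5% of all genes, which was the metal importer *Slc39a8* (-1.18). *Trf*, the transferrin that *Tfrc* binds, was at 4.12 ± 0.898 FPKM in sham (SD, n = 4) against 31.3 ± 9.97 in AAN (SD, n = 6), which on the log2 scale is a change of 2.86 (adjusted p = 2.19e-06 from limma) and of 2.10 after the median of ratios. Ligand and receptor therefore differed in direction. *Lcn2*, lipocalin-2, which binds iron-laden siderophores and is released by injured tubules, was at 0.153 to 0.523 FPKM in sham and 12.7 to 71.9 FPKM in AAN mice. *Steap4*, a metalloreductase, rose by 2.24 on the log2 scale (adjusted p = 0.000323 from limma), and *Tfr2* and *Cybrd1* were called at means under 1 FPKM. *Tfr2* passed the filter on low values only through the AAN mice. The other carriers and reductases were not called, among them *Slc39a14* (0.70 on the log2 scale), an importer of iron not bound to transferrin, and the endosomal reductase *Steap3* (0.87).

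Of the genes of ferritin turnover and iron delivery, 0 of the 4 tested were called, where 35.8% of all genes were called higher and 3.43% lower. *Ncoa4*, which takes ferritin to lysosomes, had a log2 fold change of 0.96 (adjusted p = 0.0791 from limma), which passed the limits when any 1 of 3 of the mice was left out (1.13 to 1.26). *Heph*, the membrane ferroxidase related to *Cp*, was at 1.05 ± 0.370 FPKM in sham (SD, n = 4) against 1.78 ± 0.593 in AAN (SD, n = 6), which on the log2 scale is a change of 0.71, short of the fold limit. *Cp* rose against *Heph* by 3.82 in log2 terms (standard error 0.52; p = 0.00476 by exact two-sided permutation, adjusted p = 0.00714).

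Of the genes that sense iron or act in the hepcidin pathway, 4 of 7 tested rose (*Hfe*, *Bmp6*, *Tmprss6* and *Erfe*), with a median log2 fold change of 1.34, beside 35.8% of all genes called higher. After the median of ratios 3 were called higher (*Hfe*, *Tmprss6* and *Erfe*), beside 19.0% of all genes, and 1 lower (*Aco1*), beside 10.5%, with a median of 0.58. The median was the value of *Bmp6* under both scalings. *Hfe*, a partner of the transferrin receptors, rose from 3.83 ± 1.12 (SD, n = 4) in sham mice to 13.7 ± 2.44 FPKM (SD, n = 6) in AAN mice. *Bmp6*, the signal for hepcidin in liver, rose by 1.34 as deposited (adjusted p = 0.0137 from limma) and was at 1.01 without the sham mouse B634 (adjusted p = 0.0526 from limma) and 0.58 after the median of ratios. *Tmprss6* and *Erfe* were at 0.364 FPKM or less in every mouse and passed the filter on low values only through the AAN mice. *Hamp*, hepcidin, the hormone that closes ferroportin, was listed at 0 in all sham mice and at 0 to 0.364 FPKM in AAN mice. It was under the filter, as *Hjv* was, and no value was found under the symbol *Hamp2*. The iron regulatory proteins were not called, with *Aco1* at -0.70 (adjusted p = 0.0506 from limma) and *Ireb2* at 0.64 (adjusted p = 0.0105 from limma). After the median of ratios *Aco1* was at -1.46, past the limits, and *Ireb2* at -0.12.

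**Figure D4:**
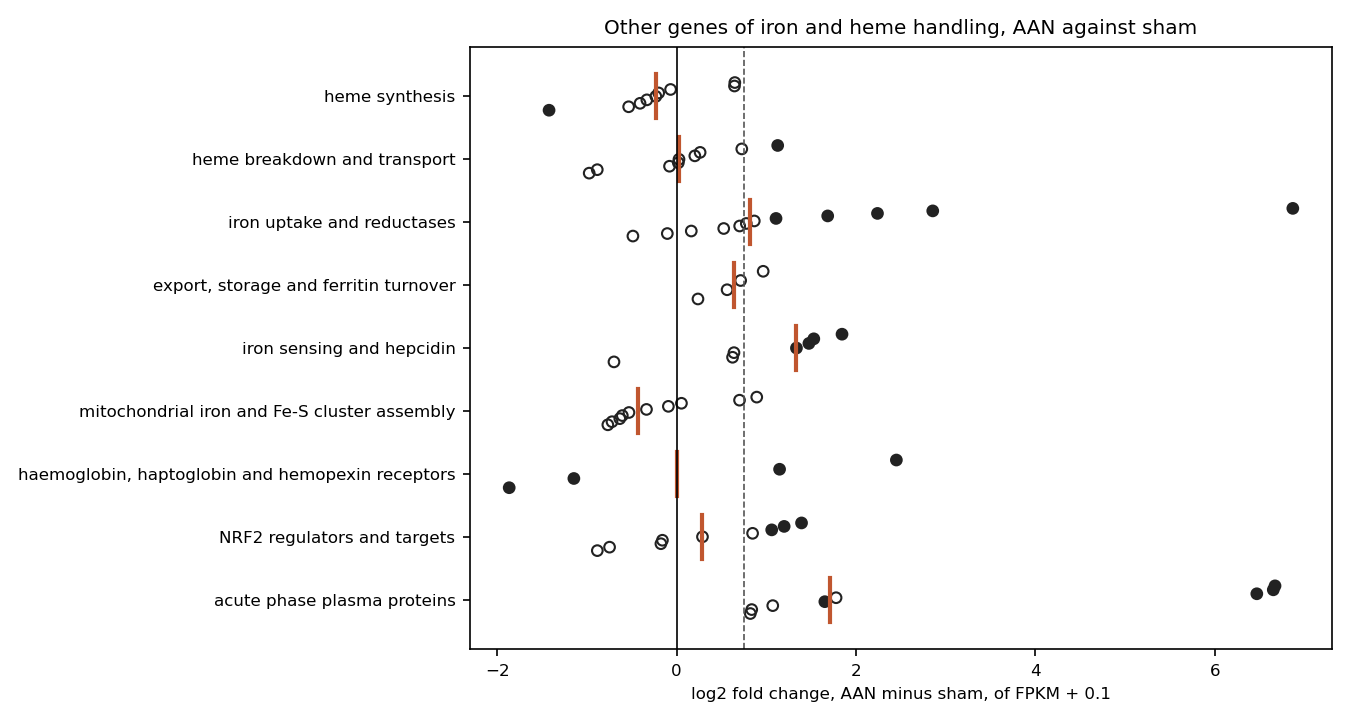
Log2 fold change of FPKM + 0.1 from sham to AAN mice for each gene tested in the other lists of iron and heme handling. Filled points passed the limits, orange bars mark the list's median, and the dashed line marks the median of all genes (0.75). More genes lie left of 0 than right of it in heme synthesis and in mitochondrial iron and Fe-S cluster assembly.

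The genes of heme synthesis had a median log2 fold change of -0.23, and 1 of 9 fell, beside 3.43% of all genes. This was *Cpox*, coproporphyrinogen oxidase, at 31.4 ± 15.9 FPKM in sham (SD, n = 4) against 12.1 ± 6.85 in AAN (SD, n = 6). After the median of ratios 4 of the 9 were called lower, beside 10.5% of all genes, which were *Cpox*, *Alas1*, *Alad* and *Fech*. Of the genes of mitochondrial iron import and Fe-S cluster assembly, 0 of 10 were called as deposited (median -0.43), but 6 of 10 were called lower after the median of ratios, beside 10.5% of all genes. The mitochondrial iron importers *Slc25a37* and *Slc25a28* were not among the 6. They were at 0.89 and 0.70 as deposited, and at 0.15 and -0.060 after the median of ratios.

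Of the genes of heme breakdown and transport, 1 of 9 rose, beside 35.8% of all genes. This was *Blvrb*, a biliverdin reductase, which rose from 5.28 ± 0.394 (SD, n = 4) in sham mice to 12.3 ± 3.90 FPKM (SD, n = 6) in AAN mice. After the median of ratios its log2 fold change was 0.37, short of the limits. *Blvra*, the main biliverdin reductase, was at 18.6 ± 2.14 FPKM in sham (SD, n = 4) against 19.1 ± 3.12 in AAN (SD, n = 6). The heme exporter *Abcg2* and the heme-binding *Hebp1* were below the sham range in all AAN mice, beside 3.25% of all genes. They were at -0.89 and -0.98 on the log2 scale. After the median of ratios these 2 of the 9 were called lower, beside 10.5% of all genes.

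Of the 4 receptors for the plasma carriers, 2 were called higher as deposited, beside 35.8% of all genes, and 2 lower, beside 3.43%. After the median of ratios 1 was called higher (*Lrp1*, 1.71), beside 19.0%. Called lower there were 2, *Lrp2* and *Cubn* (-2.63 and -1.91), beside 10.5%. *Lrp1*, which takes up hemopexin with heme, rose from 1.51 ± 0.311 (SD, n = 4) in sham mice to 8.74 ± 1.76 FPKM (SD, n = 6) in AAN mice. *Cd163*, the macrophage receptor of haptoglobin with haemoglobin, was at 0 to 0.0262 FPKM in sham and 0.0107 to 0.393 FPKM in AAN mice, a low level at which its log2 fold change of 1.15 depends on the pseudocount (0.21 with a pseudocount of 1) and fell short of the limits when any 1 of 5 of the mice was left out (0.94 to 1.15). Megalin (*Lrp2*) and cubilin (*Cubn*), the endocytic receptors of the proximal tubule, fell by 1.87 and 1.15 on the log2 scale (adjusted p = 0.00447 and 0.0186 from limma), the latter at -0.89 without the sham mouse B607.

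Of NRF2 (*Nfe2l2*), its regulators and its targets, 3 of 9 rose and 0 fell, a share near the 35.8% of all genes called higher. *Nfe2l2*, which activates *Hmox1*, rose by 1.06 (adjusted p = 0.0081 from limma), but by less than 2-fold when any 1 of 5 of the mice was left out (0.86 to 0.99), and *Bach1*, which represses it, rose by 1.20 (adjusted p = 0.000227 from limma), while both were short of the fold limit after the median of ratios (0.30 and 0.45). The targets *Nqo1* and *Gclm*, of antioxidant defence, were at -0.88 and -0.75, short of the fold limit. After the median of ratios these 2 of the 9 were called lower, beside 10.5% of all genes. Other targets, *Srxn1*, *Gclc* and *Txnrd1*, were at 0.29, -0.18 and -0.16 as deposited and were called under neither scaling. *Slc7a11*, a cystine importer and among the 3, rose to 0.111 to 0.316 FPKM from 0.0116 FPKM or less. It passed the filter on low values only through the AAN mice.

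Of the acute phase plasma proteins, to which haptoglobin, hemopexin and ceruloplasmin belong, 4 of 8 with a value rose and 0 fell, and the same 4 were called higher after the median of ratios, beside 35.8% and 19.0% of all genes called higher. *C3*, complement component 3, was at 3.45 ± 0.756 FPKM in sham (SD, n = 4) against 382 ± 166 in AAN (SD, n = 6). *Serpina3n* was at 6.48 FPKM or more in AAN mice and 0.0294 FPKM or less in sham mice, and *Saa3* was at 3.96 to 25.1 FPKM in AAN mice and listed at 0 in all sham mice. *Itih4* was the other gene called, and like *Saa3* and *Serpina3n* it passed the filter on low values only through the AAN mice. *Fgb*, *Orm1*, *Saa1* and *Apcs* were not called, though their log2 fold changes were above 0 (1.78, 1.07, 0.82 and 0.84). Their standard errors were 1.13, 0.52, 0.62 and 0.37. The lists overlap in part, since *Fgb* is also among the hepatocyte markers.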

How the data were processed

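RNA of the kidney cortex of 4 sham and 6 AAN mice was sequenced as paired-end TruSeq libraries on the HiSeq Xten. After filtering out ribosomal, adapter, short and poor reads, the authors aligned with Hisat2 2.0.4 (build GRCm38.p4), and Stringtie 1.3.0 gave FPKM. These deposited FPKM values were used as they are. The annotation release and strand use are not given in the sources used here. Groups follow the sample labels.

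Symbols came from GENCODE M21 (GRCm38) for 21665 of 21792 genes. Depth was recovered from genes with 1 transcript and values under 0.3 FPKM, of which 94.5% to 96.8% were whole fragments (tolerance 0.05). Fragment numbers of the genes are upper limits from the whole exonic length, and cover counting error only.

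The fit used limma 3.58.1 in R 4.3.3 (trend, robust, two-sided), in place of a count model, since no counts were used, with a pseudocount of 0.1. It was tested on simulated data. Single values were compared over the 210 ways to divide the mice with an exact two-sided permutation test. Scripts ran on Python 3.11.15 (numpy 2.4.6; pandas 2.3.3), with tests in scipy 1.17.1 and plots in matplotlib 3.10.9. The 10 genes, the other lists and the tests were chosen with earlier results of these data known. Named from the other lists were partners of the 10 genes, and up to 4 called genes per list with the largest change that reached 1 FPKM on average in their higher group. *Tfr2*, *Cybrd1*, *Tmprss6*, *Erfe*, *Alas1*, *Alad*, *Fech*, *Abcg2*, *Hebp1*, *Nqo1*, *Gclm*, *Slc7a11*, *Slc39a8*, *Umod*, *Kcnj1*, *Hbb-bs*, *Cxcr2* and *Itih4* were named after their values were seen. So were *Serpina1a*, *Fgb*, *Orm1*, *Saa1*, *Apcs*, *Slc25a37*, *Slc25a28*, *Srxn1*, *Gclc* and *Txnrd1*, which were not called. Alternatives were other pseudocounts, filters, scalings, limma settings and fold limits, each mouse left out, and the mice with B tags alone. A few genes of the lists are not reported here.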

Additional observations from a re-analysis of the deposited data

Results flagged for a closer look

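Of 32 groups of values of the 10 genes and 6 differences, 2 held a mouse whose gap to its nearest neighbour was large against the range of its group (Dixon's test at 95%), where chance gives about 1.6. Both concern log2 *Cp* minus log2 *Heph*. The sham mouse B607 was at -0.73, with the other sham mice at 0.42 to 0.51. The AAN mouse B614 was at 1.96, with the other AAN mice at 4.11 to 4.79. Without B607 the rise of this difference was 3.52, and without B614 it was 4.23.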

How the results depend on the processing

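Of the 201 values of the 10 genes under alternatives, 187 kept their direction and their side of the limits. *Hp*, *Cp*, *Slc11a1* and *Tfrc* did so under all 20. *Hmox1* turned to -0.43 under the median of ratios and -0.025 under quantile normalization, and *Fth1* to 0.28 under the latter. *Slc40a1* passed the fold limit with the same FPKM total (1.28), without B607 (1.104) and without B630 (1.07), and *Hpx*, which had no value at a mean of at least 1 FPKM, missed the limits with a pseudocount of 1, the median of ratios and quantile normalization.

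The number of genes called lower among the 10, which was 1, became 4 under the median of ratios, 2 under quantile normalization and 1 to 2 with each mouse left out, where the 2 were found without B634. Genes called higher over the whole table, 6126, numbered 2909 when the pseudocount was 1, 4025 when only genes averaging 1 FPKM or more were tested, 3261 under the median of ratios, 2546 under quantile normalization and 9482 without a fold limit. Genes called lower, 588, numbered 1801, 1992 and 332 under the median of ratios, quantile normalization and an equal FPKM total, and 1027 without a fold limit. Of all genes called, 91.2% were higher as deposited, 64.4% when scaled by the median of ratios and 56.1% by quantiles.

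Signs also turned for *Blvra* (-0.73 under the median of ratios, -0.43 under quantile normalization, -0.021 to 0.12 with each mouse left out), *Hmox2* (-0.56 and -0.28 after these scalings), *Slc39a14* (-0.020 and -0.31), *Ireb2* (-0.12 after the median of ratios), and, after quantile normalization, *Heph* (-0.39), *Ncoa4* (-0.16) and *Steap3* (-0.34). *Fth1* minus *Ftl1* was -0.14 to 0.18 with each mouse left out and -0.038 with *Ftl1-ps1* added to *Ftl1*, an alternative chosen after seeing the data. *Hmox1* minus *Hmox2* was -0.075 to 0.33 with each mouse left out and -0.057 with B tags alone. *Hp* minus *Hpx* was 3.28 with a pseudocount of 0.01 and missed the threshold. The cause was not tested in any of these. No paired analysis was possible because the labels give sham and AAN mice tags of their own and no shared number. Depth limits *Hp* and *Hpx* most, which stood for few fragments in sham mice.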
